A study of Mus musculus with 12 samples.

Results

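RNA was measured in NK1.1- *i*NKT cells of the mouse thymus, in which miR-155KI cells were compared with WT cells. The members were the 3 miR-155KI and the 3 WT libraries whose labels name the NK1.1- pool, 6 of the 12 libraries of the series, and every gene of the count table that passed a filter on low counts was examined. Invariant natural killer T cells (*i*NKT) form a T cell lineage with a nearly fixed T cell receptor (TCR) that binds lipids presented by CD1d, and the thymus forms several kinds of them. In the NK1.1- pool these are mainly *i*NKT2 cells, which make IL-4, *i*NKT17 cells, which make IL-17, and cells that have not finished maturing. Mature *i*NKT1 cells, which make IFN-γ and depend on T-bet, mostly carry NK1.1 and fall in the other pool.

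All mice were C57BL/6J and 7 weeks old, according to their labels. According to the methods of the study, miR-155KI mice held a miR-155 cassette at Rosa26 in 2 copies and a Cre transgene under the *Cd4* promoter, and WT mice were littermates with the cassette and no Cre. Both groups thus held the knock-in allele and differed in Cre, and CD4Cre is active in all αβ T cells from the double-positive thymocyte onward, not in *i*NKT cells alone. Thymocytes were depleted of CD8+ cells, stained for TCRβ, CD1d tetramer, NK1.1 and CD44, and sorted. The methods state that independent replicates were pooled for sequencing, while 3 separate libraries per group were deposited, and no source ties a library to a mouse, so the p-values reflect only how far these libraries vary, which may be technical in part.

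A microRNA binds messenger RNAs through its seed, bases 2 to 8 counted from its 5′ end, usually in the 3′ untranslated region (UTR), and lowers the level or the translation of the message. The mature arms of miR-155 are given here because the seed of the 5p arm defines the sites examined further on, with the seed in capitals. The sequences are from RefSeq on build GRCm38.p6.
mmu-miR-155-5p (chr16:84714143-84714165, plus strand): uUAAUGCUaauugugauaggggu
mmu-miR-155-3p (chr16:84714182-84714202, plus strand): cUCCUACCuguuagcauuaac
The host transcript of miR-155, *Mir155hg* (chr16:84703167-84715245, GRCm38, a long noncoding RNA), checks the genotype. It lay at 13.3, 14.5 and 9.91 CPM (read counts scaled to a common library size with TMM factors) in the 3 WT libraries and at 149, 141 and 133 CPM in the 3 miR-155KI libraries. The groups were far apart, with a log2 fold change of 3.49 ± 0.15 (SE) and an adjusted p of 8.28e-08 from edgeR's quasi-likelihood test. The table lists *Mir155* itself at 0 in all 6 libraries, and *Mtmr14*, *Setd5*, *Thumpd3* and *Lhfpl4*, genes of the region around Rosa26, passed no test.

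The 6 libraries held 12819476 to 18347011 counts. *Cd3e*, *Cd4* and the TCR segments *Trav11* and *Traj18* of the invariant receptor were present at like levels in all 6, with *Cd3e* between 582 and 707 CPM and *Trav11* between 241 and 294 CPM. The libraries were not alike in sex-linked RNA. *Xist*, expressed from the inactive X chromosome of females, was at 251 and 139 CPM in WT replicates 2 and 3, at 12.9 CPM in WT replicate 1 and at 8.47 to 27.1 CPM in the miR-155KI libraries, and *Ddx3y*, which lies on the Y chromosome, showed the reverse (7.33 and 3.38 CPM against 53.7 CPM and 59.6 to 71.4 CPM). Sex-linked RNA and genotype thus overlapped in part. Summary values are also given with WT replicate 1 as the only WT library. They are further given with the log ratio of Y-linked genes to *Xist* as a covariate. Most single genes are reported without values from these fits. The summed level of 20 B cell markers was 1060 CPM in WT replicate 1, 406 CPM in miR-155KI replicate 1 and 154 to 210 CPM in the other 4, the sum of 11 erythroid and platelet markers was highest in WT replicate 3 and miR-155KI replicate 3 (162 and 321 CPM against 20.7 to 33.4 CPM), and no gene of either list was called by edgeR (of 18 and 5 tested, 1 and 0 had an unadjusted p under 0.05, and DESeq2 called 1 and 0).

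Of 13304 genes tested, miR-155KI cells held 257 at a higher and 200 at a lower level (adjusted p under 0.05), which is 3.44% of all genes tested (1.93% higher and 1.5% lower). The rises were mostly moderate, with 136 under 2-fold, 84 between 2-fold and 4-fold and 37 over 4-fold, and a median log2 fold change of 0.97. The falls had a median of -1.10, with 94 under 2-fold, 68 between 2-fold and 4-fold and 38 over 4-fold. The median over all genes tested was -0.001. All 457 called genes had groups that did not overlap, which was also true of 12.3% (higher) and 10.7% (lower) of all genes tested. Of the 457 calls, 81 rises and 68 falls held in each of the 6 fits that left out 1 library. Without WT replicate 1 the counts were 369 higher and 548 lower, without WT replicate 2 they were 105 and 103, without WT replicate 3 they were 128 and 121, without miR-155KI replicate 1 they were 99 and 87, and without miR-155KI replicate 3 they were 154 and 116. Against WT replicate 1 alone 157 genes were called, 111 of them among the 457, and with the sex-linked covariate 115 were called, 98 of them among the 457. In sorted bulk cells, fewer cells of a type and less RNA per cell cannot be told apart.

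**Figure D1:**
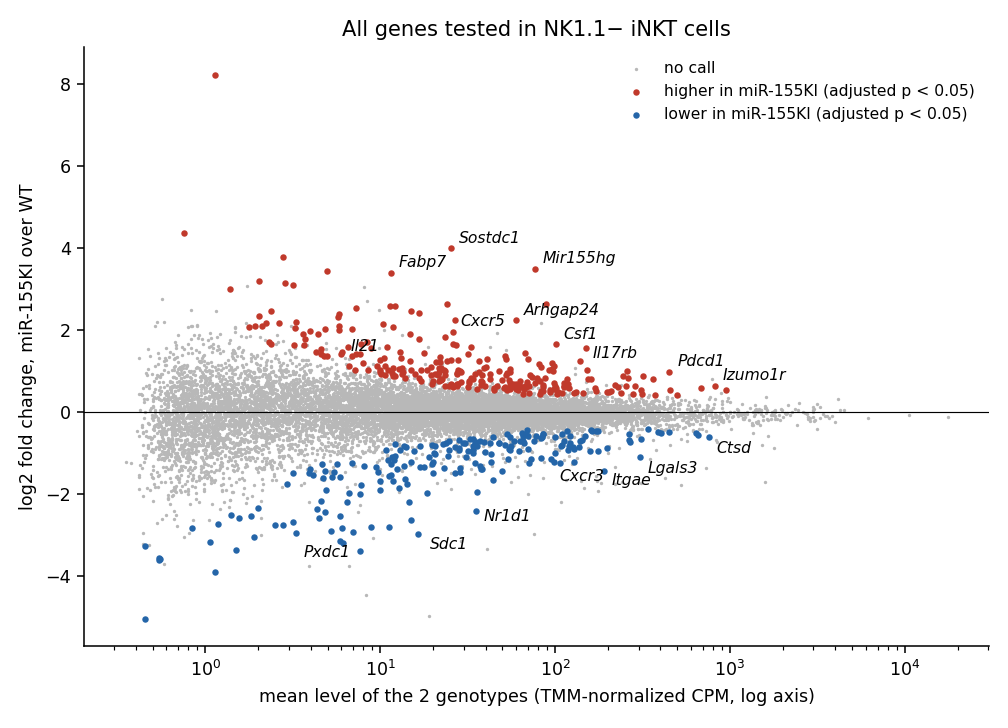
Each of the 13304 genes tested in NK1.1- *i*NKT cells by its mean level (TMM-normalized CPM, horizontal log axis) and by the log2 fold change from WT to miR-155KI cells (vertical axis). The 257 genes called higher are red, the 200 called lower are blue and the rest grey, and calls lie at low, middle and high levels.

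Calls were spread over levels and over the genome. When genes were split by mean level into 10 bins of equal size, the lowest (0.35 to 1.16 CPM) held 2 rises and 8 falls, and each of those above 2.79 CPM held between 22 and 36 rises and between 15 and 27 falls. Chromosome 6 had more falls than rises, 23 against 7 of 671 genes tested, and chromosome 16 more rises than falls, 15 against 2 of 387. The shares called there were 4.47% and 4.39%, against 3.44% of all genes. On the X chromosome 9 of 387 genes rose and 3 fell (3.1% called) and none of the 4 tested on Y was called (none had an unadjusted p under 0.05, and DESeq2 and limma-voom called none). The median log2 fold change of the 4 on Y was still 1.57, and the WT libraries differed among themselves in Y-linked RNA. Of the 457 called genes, 419 were protein-coding by GENCODE M21 (228 higher, 191 lower). Of the 340 tested antisense transcripts, 7 were higher and none was lower (9 with an unadjusted p under 0.05, 3 by DESeq2 and 0 by limma-voom), and of the 279 tested lincRNAs 7 were higher and 1 was lower. The shares called were 2.06% of antisense transcripts and 2.87% of lincRNAs, against 3.44% of all genes.

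The naming rule asked for 10 CPM or more on average in a group and for groups that did not overlap. It also asked for a call in all 6 fits that left out a library. The largest rises by this rule were led by a secreted protein. *Sostdc1* (chr12:36314139-36318452), which encodes a secreted antagonist of BMP and Wnt ligands, was at 3.50, 2.73 and 2.81 CPM in WT and at 37.7, 47.8 and 57.3 CPM in miR-155KI libraries. The groups were far apart, and the log2 fold change was 3.98 ± 0.21 (SE, adjusted p = 5.56e-07). *Fabp7*, a fatty acid binding protein best known from brain, followed from 2.64, 2.00 and 1.43 CPM to 28.2, 18.4 and 16.2 CPM (3.38 ± 0.31, adjusted p = 7.08e-05). *Moxd1*, a copper monooxygenase-like protein, was at 8.14, 5.58 and 6.53 CPM in WT and 48.1, 40.3 and 35.8 CPM in miR-155KI libraries (log2 fold change 2.62 ± 0.19, adjusted p = 1.59e-05). In each of these genes the highest WT library stayed well below the lowest miR-155KI library.

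Secreted signals and their receptors made up part of the rises. *Il21*, a cytokine that acts on B cells and T cells and is typical of follicular helper T cells, was at 5.78, 4.49 and 3.50 CPM in WT and at 19.1, 19.8 and 18.3 CPM in miR-155KI libraries, close together within each group (log2 fold change 2.06 ± 0.24, adjusted p = 0.000467). *Cxcr5*, the receptor for the follicle chemokine CXCL13, rose from 13.5, 10.2 and 8.20 CPM to 52.0, 44.7 and 26.8 CPM (1.95 ± 0.26, adjusted p = 0.00252). *Csf1*, the growth factor of macrophages, rose from 46.6, 47.5 and 52.6 CPM to 168, 119 and 173 CPM (1.65 ± 0.15, adjusted p = 6.56e-05). The rule that named these genes required groups without overlap, and miR-155KI replicate 3 was the nearest to WT for *Cxcr5*.

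Other large rises had varied roles. *Kirrel3*, an adhesion protein of synapses, rose from 7.14, 9.58 and 11.2 CPM to 52.2, 42.3 and 37.7 CPM (2.24 ± 0.20, adjusted p = 6.56e-05), and *Map1b*, a microtubule-associated protein of axons, rose from 3.43, 2.30 and 2.52 CPM to 11.7, 12.6 and 9.14 CPM (2.02 ± 0.29, adjusted p = 0.00168). *Arhgap24*, which inactivates Rac, had the smallest error of these 3, at 24.7, 17.6 and 20.5 CPM in WT and 108, 97.0 and 89.2 CPM in miR-155KI libraries (log2 fold change 2.23 ± 0.15, adjusted p = 5.59e-06). The rule also named *Akr1c12*, an aldo-keto reductase, *Fam84a*, *Parm1*, *Hap1*, *Gadl1* and the centriolar gene *Cep162*, with log2 fold changes of 2.54, 2.16, 1.89, 1.66, 1.64 and 1.58. *Akr1c12* has near copies beside it, one of which, *Akr1c13*, also rose (1.07), and reads may be split between them. *Akr1c13* lost its call without WT replicate 3 (adjusted p = 0.0861). That call also ended without WT replicate 2 or miR-155KI replicate 1 or 2. *Tceal3* and *Zcchc18* lie on the X chromosome, and both also stood above WT replicate 1 alone (*Tceal3* 6.78, 10.1 and 14.0 CPM in WT and 40.5, 43.3 and 25.8 CPM in miR-155KI libraries, adjusted p 0.00765 with WT replicate 1 as the only WT library).

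The largest falls were led by *Pxdc1* (chr13:34627834-34653486), whose product holds a phospholipid-binding PX domain. It was at 11.3, 16.4 and 14.4 CPM in WT and at 1.17, 1.54 and 1.35 CPM in miR-155KI libraries, a log2 fold change of -3.38 ± 0.29 (adjusted p = 5.80e-05). *Sdc1*, the heparan sulfate proteoglycan syndecan-1, fell from 19.1, 35.3 and 33.1 CPM to 4.0, 2.08 and 4.98 CPM (-2.96 ± 0.33, adjusted p = 0.000804). The lowest WT library of each stood well above the highest miR-155KI library, and the naming rule itself required groups without overlap. *Nr1d1*, the clock repressor REV-ERBα, was lower in WT replicate 1 than in the other WT libraries but far above all miR-155KI libraries (35.9, 67.7 and 73.7 CPM against 9.43, 10.6 and 13.3 CPM, log2 fold change -2.41 ± 0.27, adjusted p = 0.00104).

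Channels, enzymes and surface proteins filled most of the rest of these falls. The water and glycerol channel *Aqp3* was at 17.6, 30 and 24.1 CPM in WT and 7.19, 4.78 and 3.79 CPM in miR-155KI libraries (log2 fold change -2.18 ± 0.27, adjusted p = 0.000776), and the intracellular aquaporin *Aqp11* fell from 14.4, 16.4 and 20.5 CPM to 7.51, 5.32 and 4.82 CPM (-1.54 ± 0.25, adjusted p = 0.00385). *Furin*, a protease that activates precursor proteins such as TGF-β, fell from 40.0, 82.6 and 47.0 CPM to 15.6, 13.9 and 14.4 CPM (-1.95 ± 0.25, adjusted p = 0.00225). *Hk2*, a hexokinase of glycolysis, fell from 14.3, 26.8 and 18.8 CPM to 6.29, 5.32 and 5.03 CPM (-1.85 ± 0.26, adjusted p = 0.00145), and the background potassium channel *Kcnk5* fell from 15.7, 21.9 and 16.3 CPM to 7.67, 4.47 and 4.71 CPM (-1.67 ± 0.26, adjusted p = 0.00324). WT replicate 2 was the highest WT library for *Furin* and *Hk2*, and the rule that named them already required a call without it. The other falls named by the rule were *Fam83a*, *Apol7b*, *Fibcd1*, *Igsf23*, *Tnfrsf21*, *Tmem176a*, the muscle-type actinin *Actn2* and the repressor *Snai3*, with log2 fold changes from -2.82 to -1.69. *Pxdc1*, *Sdc1*, *Aqp3*, *Tmem176a* and *Il1r1* among these falls also stand in the list of *i*NKT17 markers. Of the 20 rises and 20 falls the rule named, 17 and 10 passed with WT replicate 1 as the only WT library, and 16 and 15 passed with the sex-linked covariate.

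**Figure D2:**
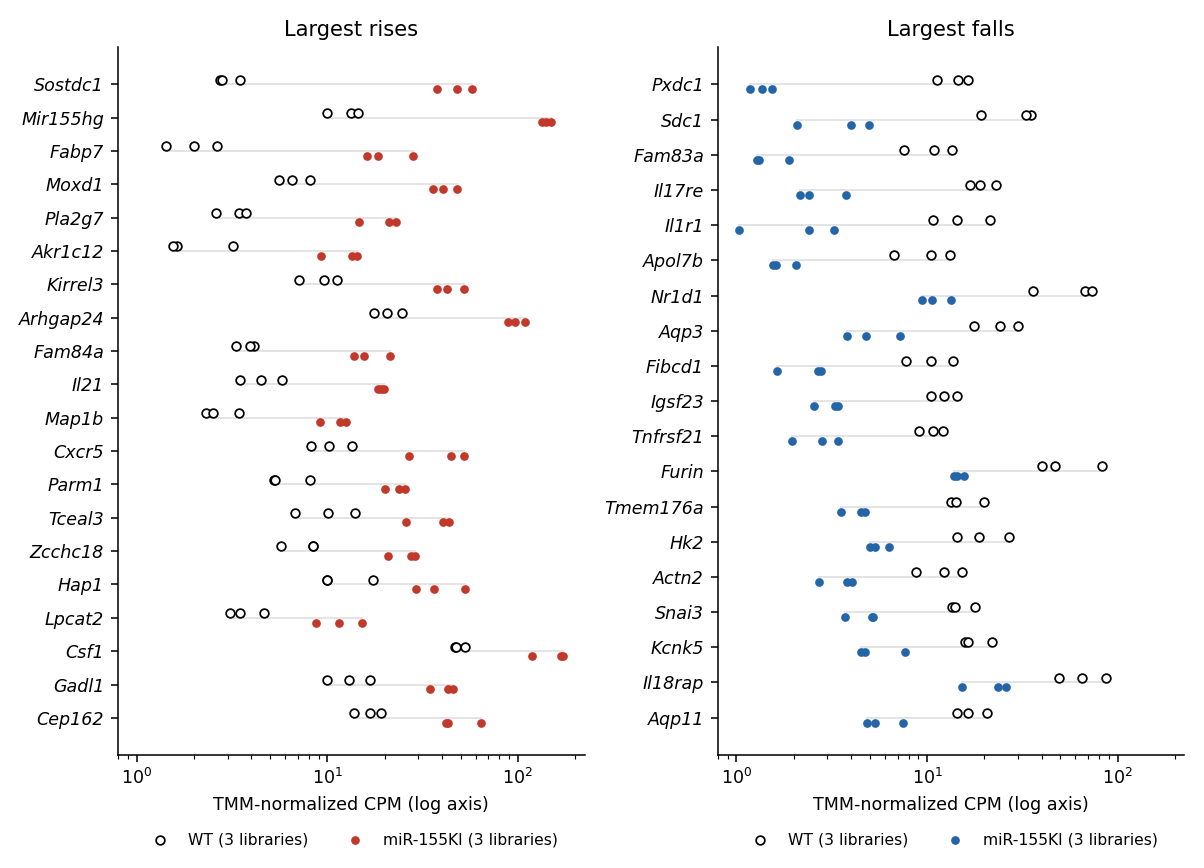
TMM-normalized CPM (log axis) of each library for the 20 largest rises (left) and 19 of the 20 largest falls (right) named by the rule, WT libraries as open circles and miR-155KI libraries as filled circles. The rule required the 3 miR-155KI libraries to lie apart from the 3 WT libraries. Log2 fold changes run from *Sostdc1* (3.98) to *Cep162* (1.58) and from *Pxdc1* (-3.38) to *Aqp11* (-1.54).

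Receptors for interleukins were mostly lower where they were called. Of 42 interleukin receptor genes tested, 10 were lower and 1 was higher, against 1.5% and 1.93% of all genes, and the median log2 fold change of the list was -0.34. The receptor subunits used by type 17 cells were among the largest falls. *Il17re*, a subunit of the IL-17C receptor, was at 16.9, 22.9 and 19 CPM in WT and at 2.40, 2.16 and 3.73 CPM in miR-155KI libraries (log2 fold change -2.81 ± 0.27, adjusted p = 0.000114), *Il1r1*, the IL-1 receptor, fell from 14.4, 21.5 and 10.8 CPM to 3.25, 2.39 and 1.03 CPM (-2.81 ± 0.41, adjusted p = 0.00315), and *Il23r*, the IL-23 receptor, fell from 11.6, 15.3 and 6.42 CPM to 0.693, 0.540 and 2.33 CPM (-3.18 ± 0.54, adjusted p = 0.0116). The partner of the IL-18 receptor, *Il18rap*, fell from 65.1, 87.2 and 49.3 CPM to 15.3, 26 and 23.5 CPM (-1.64 ± 0.25, adjusted p = 0.00608), and *Ifngr1*, a chain of the IFN-γ receptor, fell from 103, 159 and 129.9 CPM to 54.0, 61.2 and 61.0 CPM (-1.15 ± 0.15, adjusted p = 0.001).

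Receptors of broader use were lower as well. *Il2rb*, the chain shared by the IL-2 and IL-15 receptors, was at 692, 839 and 730.2 CPM in WT and 485, 534 and 569.8 CPM in miR-155KI libraries (log2 fold change -0.51 ± 0.11, adjusted p = 0.0217). *Il4ra*, *Il21r*, *Il12rb2* and *Il17rc* had log2 fold changes of -1.42, -0.71, -1.27 and -2.50. The single rise was *Il17rb*, the IL-25 receptor and a mark of *i*NKT2 cells, at 249.9, 209.6 and 209 CPM in WT and at 438, 421 and 379 CPM in miR-155KI libraries (log2 fold change 0.89 ± 0.11, adjusted p = 0.000705). WT replicate 1 was the lowest WT library for *Il4ra* and still lay above all miR-155KI libraries (43.9, 87.5 and 86.4 CPM against 26.1, 23.9 and 31 CPM). *Il23r*, *Il2rb* and *Il4ra* lost their calls without miR-155KI replicate 1 (adjusted p = 0.0608, 0.142 and 0.109, respectively), and *Il21r*, *Il12rb2* and *Il17rc* without WT replicate 2 (adjusted p = 0.118, 0.105 and 0.136, respectively). Leaving out WT replicate 2 or 3 or miR-155KI replicate 1, 2 or 3 also ended at least 1 of these calls. Leaving out 1 library put the count of 10 between 4 (miR-155KI replicate 1 left out) and 11 (WT replicate 1 left out).

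Of 15 interleukin, interferon and colony factor genes tested, *Csf1* and *Il21* were higher and *Ifng* and *Il17a* were lower (26.7% called, against 3.44% of all genes). *Ifng*, the main cytokine of *i*NKT1 cells, was at 40.0, 74.6 and 50.7 CPM in WT and 16.8, 25.1 and 21.9 CPM in miR-155KI libraries (log2 fold change -1.38 ± 0.23, adjusted p = 0.00898). *Il17a* was at 4.07, 20.1 and 7.51 CPM in WT, with WT replicate 2 far above the others, and at 1.17, 0.848 and 1.51 CPM in miR-155KI libraries (log2 fold change -3.14 ± 0.58, adjusted p = 0.0208). *Il4*, the main cytokine of *i*NKT2 cells, did not pass, with groups that did not overlap (121, 129 and 134 CPM in WT and 160, 207 and 161 CPM in miR-155KI libraries, log2 fold change 0.46, adjusted p = 0.0599). *Ifng* lost its call without miR-155KI replicate 3 (adjusted p = 0.0577), and *Il17a* without miR-155KI replicate 1 (adjusted p = 0.134). Without miR-155KI replicate 2 or 3, at least 1 of these calls was lost too.

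Of 23 chemokine and chemokine receptor genes tested, 6 were lower and 1, *Cxcr5*, was higher (30.4% called, against 3.44% of all genes). *Cxcr3*, a receptor of type 1 lymphocytes, was at 191, 168 and 181 CPM in WT and at 60.5, 79.0 and 94.7 CPM in miR-155KI libraries (log2 fold change -1.21 ± 0.15, adjusted p = 0.000743). *Cxcr3* lies on the X chromosome, and its value was -1.29 with WT replicate 1 as the only WT library. Its ligand *Cxcl10* fell from 11.6, 22.1 and 14.8 CPM to 5.65, 8.95 and 5.68 CPM (-1.27 ± 0.28, adjusted p = 0.0286). The chemokines *Xcl1*, which attracts dendritic cells, and *Ccl5* had log2 fold changes of -0.92 and -0.91, and the receptors *Ccr8* and *Ccr6* had -0.70 and -2.89. *Ccr6*, a receptor of type 17 cells, was low in miR-155KI libraries (1.49, 2.00 and 0.325 CPM, against 10.2, 13 and 4.53 CPM in WT). *Ccl5*, *Ccr8* and *Ccr6* lost their calls without miR-155KI replicate 1 (adjusted p = 0.0654, 0.0879 and 0.155, respectively), and *Cxcl10* without WT replicate 2 (adjusted p = 0.165). The same held for at least 1 of these calls without WT replicate 2 or 3 or miR-155KI replicate 1 or 3. The count of 6 lay between 2 (miR-155KI replicate 1 left out) and 8 (WT replicate 1 left out).

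In the TNF superfamily 5 of 38 genes tested were lower and 2 were higher (18.4% called, against 3.44% of all genes). *Tnfsf11*, which encodes the cytokine RANKL, was at 35.8, 38.4 and 34.2 CPM in WT and at 71.5, 76.2 and 63.1 CPM in miR-155KI libraries (log2 fold change 0.96 ± 0.13, adjusted p = 0.00104). *Tnfrsf25*, the receptor DR3 for TL1A, fell from 52.6, 50.9 and 56.1 CPM to 15.4, 23.4 and 25.7 CPM (-1.31 ± 0.18, adjusted p = 0.0015), and *Tnfrsf1a*, a receptor for TNF, fell from 53.6, 49.0 and 56.4 CPM to 31, 32.9 and 30.8 CPM (-0.75 ± 0.13, adjusted p = 0.00647). *Traf5* and *Traf1*, adaptors of these receptors, went opposite ways, with log2 fold changes of 0.57 and -0.53, and *Fasl*, the ligand of the death receptor Fas, had -1.06. *Traf5* lost its call without miR-155KI replicate 3 (adjusted p = 0.151), *Traf1* without miR-155KI replicate 1 (adjusted p = 0.125), and *Fasl* without WT replicate 2 (adjusted p = 0.0673). At least 1 of these calls also ended without WT replicate 1, 2 or 3 or miR-155KI replicate 1, 2 or 3. The count of 5 lay between 3 (WT replicate 2 or 3 or miR-155KI replicate 1 left out) and 10 (WT replicate 1 left out).

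Costimulatory and inhibitory receptors moved in both directions, with 3 higher and 3 lower of 29 tested (1 to 4 and 1 to 3 with 1 library left out). The share called was 20.7%, against 3.44% of all genes. *Pdcd1*, the inhibitory receptor PD-1, was at 326, 281 and 305 CPM in WT and at 636, 575 and 576 CPM in miR-155KI libraries, about 2 times as high and narrow in each group (log2 fold change 0.97 ± 0.10, adjusted p = 0.000217). *Icos*, a costimulator of the CD28 family, was at 876, 779.8 and 654 CPM in WT and 1025, 1125 and 1214 CPM in miR-155KI libraries (log2 fold change 0.54 ± 0.12, adjusted p = 0.0255). *Ctla4*, its inhibitory neighbour on chromosome 1, went the other way, at 4.71, 11.6 and 10.1 CPM in WT and 3.09, 2.54 and 3.14 CPM in miR-155KI libraries (-1.58 ± 0.35, adjusted p = 0.0266). The inhibitory receptor *Btla* had a log2 fold change of 0.60, the adhesion receptor *Cd226* of -0.98 and *Cd72*, best known from B cells, of -0.93 (18.1, 19.3 and 13.6 CPM in WT, 8.63, 7.40 and 10.6 CPM in miR-155KI libraries). *Icos* and *Btla* lost their calls without miR-155KI replicate 3 (adjusted p = 0.138 and 0.0757), and *Ctla4* and *Cd72* without WT replicate 2 (adjusted p = 0.149 and 0.17). Leaving out WT replicate 1, 2 or 3 or miR-155KI replicate 1, 2 or 3 also ended at least 1 of these calls.

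Among SLAM, killer lectin-like and Ly49 receptors 2 of 31 were higher and 3 lower (1 to 2 and 0 to 3 with 1 library left out), with a list median of -0.49. The share called was 16.1%, against 3.44% of all genes. *Slamf6*, a receptor needed for *i*NKT cell selection, was at 207, 198 and 158 CPM in WT and at 319.9, 343 and 339.7 CPM in miR-155KI libraries (log2 fold change 0.83 ± 0.12, adjusted p = 0.00148), and *Sh2d1a*, which encodes its adaptor SAP, had a log2 fold change of 0.49. *Sh2d1a* lies on the X chromosome, and its value was 0.31 with WT replicate 1 as the only WT library. *Klrb1c*, which encodes NK1.1 itself, was detected in this NK1.1- pool, at 72.5, 84.6 and 61.1 CPM in WT and 37.9, 51.9 and 43.4 CPM in miR-155KI libraries (-0.71 ± 0.15, adjusted p = 0.0229). *Klra3*, whose reads may be shared with related Ly49 genes, and *Slamf7* had -0.83 and -0.76. *Izumo1r*, the folate receptor 4 of the T lineage, was at 647, 657 and 612 CPM in WT and 1040.0, 1082 and 855 CPM in miR-155KI libraries (0.64 ± 0.11, adjusted p = 0.0056). *Klrb1c* and *Slamf7* lost their calls without WT replicate 2 (adjusted p = 0.127 and 0.193), *Klra3* and *Izumo1r* without miR-155KI replicate 1 (adjusted p = 0.0707 and 0.0544), and *Sh2d1a* without miR-155KI replicate 2 (adjusted p = 0.161). Without WT replicate 2 or 3 or miR-155KI replicate 1, 2 or 3, at least 1 of these calls was lost too.

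G protein-coupled receptors were lower where they were called. Of 75 outside the chemokine receptors 5 were lower and none was higher by edgeR (6 rose at an unadjusted p under 0.05, 1 by DESeq2 and 0 by limma-voom). The share called by edgeR was 6.67%, against 3.44% of all genes. *F2r*, the thrombin receptor, was at 139, 178 and 149.6 CPM in WT and 80.1, 96.2 and 71.3 CPM in miR-155KI libraries (log2 fold change -0.92 ± 0.14, adjusted p = 0.00251), and the adhesion receptor *Adgrg5* fell from 140.5, 189 and 172 CPM to 90.4, 79.1 and 99.0 CPM (-0.90 ± 0.13, adjusted p = 0.00228). The leukotriene receptors *Ltb4r1* and *Cysltr1* were low (*Ltb4r1* 7.64, 6.12 and 3.78 CPM in WT and 0.905, 1.00 and 0.379 CPM in miR-155KI libraries), with log2 fold changes of -2.94 and -3.05, and *Vipr1*, a receptor for vasoactive intestinal peptide, had -0.83. *Cysltr1* lies on the X chromosome, and its value was -3.14 with WT replicate 1 as the only WT library. Downstream, *Gna15*, a G protein α subunit, *Rgs1* and *Rgs3* were lower (-1.01, -0.99 and -0.41) and *Rgs10* was higher (0.50). The integrin *Itgae*, CD103, fell from 207, 354 and 271 CPM to 100, 91.8 and 114 CPM (-1.45 ± 0.18, adjusted p = 0.00168), while *Itga7* and the cadherin *Cdh3* were higher (1.45 and 1.28). *Rgs1*, *Rgs3* and *Cdh3* lost their calls without miR-155KI replicate 1 (adjusted p = 0.0815, 0.209 and 0.16, respectively), *Cysltr1* and *Vipr1* without WT replicate 2 (adjusted p = 0.102 and 0.115), and *Rgs10* without miR-155KI replicate 3 (adjusted p = 0.13). The same held for at least 1 of these calls without WT replicate 1, 2 or 3 or miR-155KI replicate 1, 2 or 3. The count of 5 lay between 3 (WT replicate 2 or miR-155KI replicate 1 left out) and 11 (WT replicate 1 left out).

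**Figure D3:**
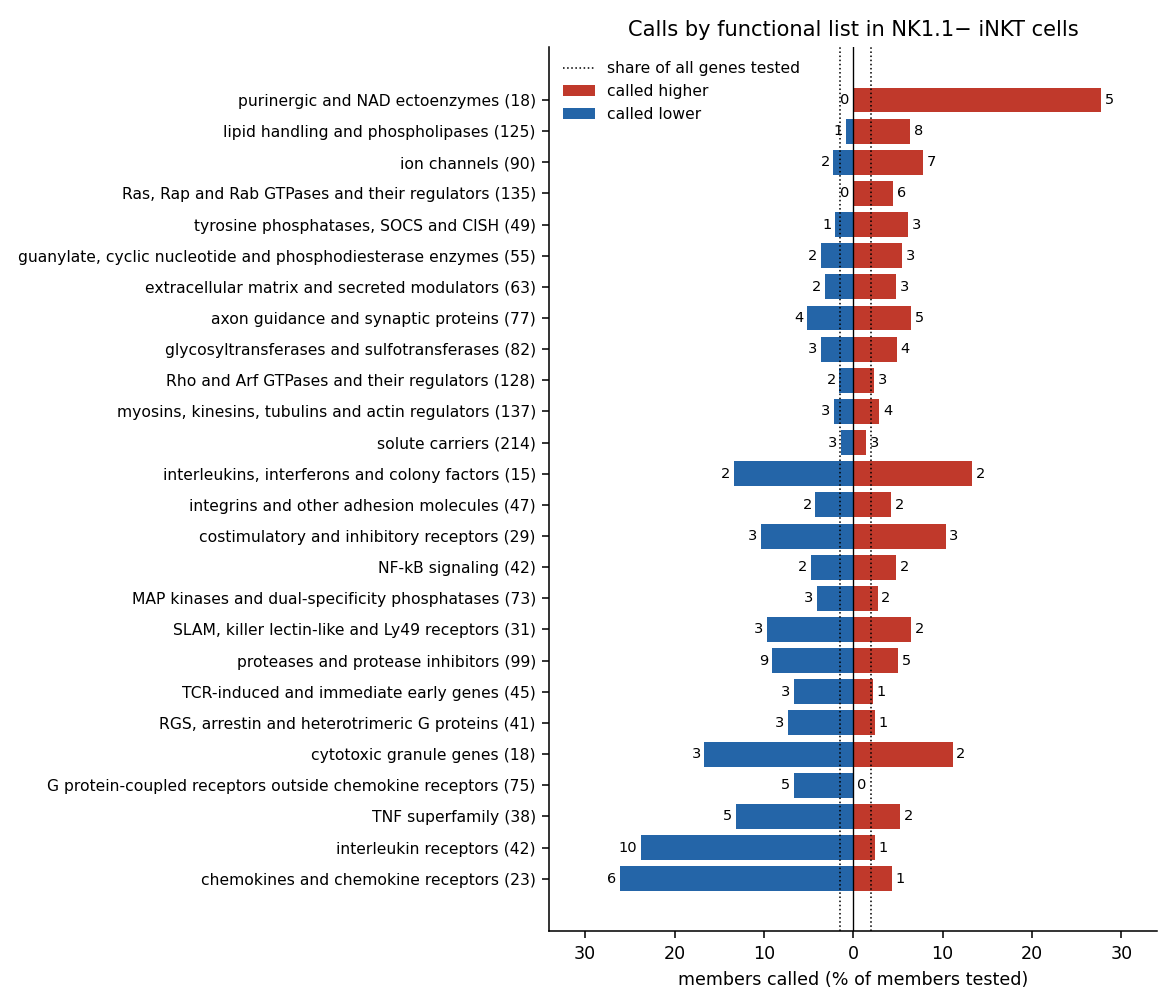
Share of tested members called higher (red, to the right) and lower (blue, to the left) in the NK1.1- cells of miR-155KI mice, in percent, for the functional lists with 15 or more genes tested and at least 4 calls. Numbers at the bars count the calls, the number after each list name is the members tested, and dotted lines mark the shares of all genes (1.93% higher, 1.5% lower), for example 10 lower of 42 interleukin receptors and 5 higher of 18 purinergic genes.

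Of the 682 listed transcription factors tested, 18 were higher and 16 lower (4.99%, against 3.44% of all genes), with a median log2 fold change of -0.01. Both counts moved with single libraries left out. Without WT replicate 1 the counts were 23 higher and 64 lower, without WT replicates 2 and 3 they were 3 and 10, and 4 and 9, and without miR-155KI replicates 1, 2 and 3 they were 2 and 7, 3 and 15, and 10 and 9. *Tbx21*, which encodes T-bet, was at 134, 155 and 126 CPM in WT and at 45.2, 66.2 and 66.4 CPM in miR-155KI libraries (log2 fold change -1.23 ± 0.15, adjusted p = 0.000776), and *Zfp683*, the tissue-residency factor Hobit, fell from 64.4, 60.5 and 55.0 CPM to 23.6, 26.2 and 27.4 CPM (-1.22 ± 0.14, adjusted p = 0.00039). *Runx3*, a factor of type 1 and cytotoxic lymphocytes, fell from 56.1, 88.0 and 78.3 CPM to 35.7, 37.6 and 27.6 CPM (-1.14 ± 0.18, adjusted p = 0.00343), and *Ikzf3*, the Ikaros family member Aiolos, fell from 175, 178 and 137 CPM to 91.4, 107 and 74.5 CPM (-0.84 ± 0.15, adjusted p = 0.00707).

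Nuclear receptors were among the falls too. Beside *Nr1d1*, *Rora*, which acts in type 17 and innate lymphocytes, was at 96.3, 191 and 160.0 CPM in WT and 56.4, 67.3 and 64.7 CPM in miR-155KI libraries (log2 fold change -1.25 ± 0.23, adjusted p = 0.0229). *Nfil3*, a bZIP factor needed by natural killer cells, was lower too (-1.96). The Myc family member *Mycn* was low in both groups without overlap (5.36, 12.4 and 5.21 CPM against 0.959, 1.08 and 1.79 CPM, -2.57 ± 0.43, adjusted p = 0.00513). *Stat4*, the signal transducer of IL-12, *Foxo3*, *Runx2*, *Nfe2l2*, the redox regulator NRF2, *Mef2a* and the cell cycle factor *E2f2* had log2 fold changes of -1.07, -0.79, -1.53, -0.76, -0.75 and -0.72. *Stat4*, *Foxo3*, *Runx2* and *Mef2a* lost their calls without WT replicate 2 (adjusted p = 0.165, 0.125, 0.21 and 0.0814, respectively), *Nfil3* and *Nfe2l2* without miR-155KI replicate 1 (adjusted p = 0.164 and 0.0836), *Rora* without WT replicate 3 (adjusted p = 0.122), and *E2f2* without miR-155KI replicate 3 (adjusted p = 0.077). At least 1 of these calls also ended without WT replicate 2 or 3 or miR-155KI replicate 1, 2 or 3.

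The named factors that rose had log2 fold changes between 0.53 and 2.09. *Lef1*, an HMG-box factor of early T cells, was at 561, 487 and 591 CPM in WT and 892, 694 and 871 CPM in miR-155KI libraries (log2 fold change 0.58 ± 0.12, adjusted p = 0.0175), and *Id3*, an inhibitor of E proteins, at 413, 301 and 409 CPM and 609, 504 and 504 CPM (0.53 ± 0.13, adjusted p = 0.0496). *Tox2*, another HMG-box factor, rose from 56.6, 55.3 and 64.2 CPM to 163, 112 and 127 CPM (1.19 ± 0.14, adjusted p = 0.000636). *Bcl6*, the repressor that directs follicular helper T cells, was about 2 times as high in miR-155KI libraries (8.28, 8.36 and 10.7 CPM against 17.1, 16.3 and 19 CPM, 0.94 ± 0.20, adjusted p = 0.0238). *Egr2*, which TCR signaling induces and early *i*NKT cells need, *Zbtb20* and *Creb3l2* had log2 fold changes of 0.69, 0.73 and 0.87. *Npas4*, an activity-induced factor of neurons, was low in both groups but clearly separated (2.64, 1.51 and 2.46 CPM against 9.43, 7.63 and 11 CPM, 2.09 ± 0.32, adjusted p = 0.00276). *Hivep3*, a zinc finger regulator of immature *i*NKT cells, rose from 125, 113 and 112 CPM to 219, 192 and 200.3 CPM (0.81 ± 0.11, adjusted p = 0.00104). *Lef1*, *Id3* and *Egr2* lost their calls without miR-155KI replicate 1 (adjusted p = 0.125, 0.234 and 0.17, respectively), *Zbtb20* and *Creb3l2* without miR-155KI replicate 2 (adjusted p = 0.177 and 0.187), and *Bcl6* without WT replicate 2 (adjusted p = 0.112). Leaving out WT replicate 1, 2 or 3 or miR-155KI replicate 1, 2 or 3 also ended at least 1 of these calls.

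Genes of the Zfp zinc finger family showed 8 rises and 1 fall (*Zfp683*) of 331 tested, 2.42% and 0.302%, where all genes had 1.93% and 1.5%, with a list median of 0.10 against -0.001 for all genes. The named rises were *Zfp870*, *Zfp60*, *Zfp536*, *Zfp950* and *Zfp831*, with log2 fold changes of 1.36, 0.97, 0.92, 0.75 and 0.59. *Zfp60* and *Zfp831* lost their calls without miR-155KI replicate 2 (adjusted p = 0.108 and 0.146), *Zfp536* and *Zfp950* without miR-155KI replicate 1 (adjusted p = 0.106 and 0.107), and *Zfp870* without WT replicate 2 (adjusted p = 0.146). Without WT replicate 2 or 3 or miR-155KI replicate 1, 2 or 3, at least 1 of these calls was lost too. The count of 8 lay between 0 (WT replicate 3 or miR-155KI replicate 1 or 2 left out) and 14 (WT replicate 1 left out), and the fall count between 1 (WT replicate 2 or 3 or miR-155KI replicate 1 or 3 left out) and 7 (WT replicate 1 left out). The master regulator of *i*NKT cells, *Zbtb16*, which encodes PLZF, did not pass (436, 521 and 479 CPM in WT, 661, 550 and 443 CPM in miR-155KI libraries, adjusted p = 0.476).

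**Figure D4:**
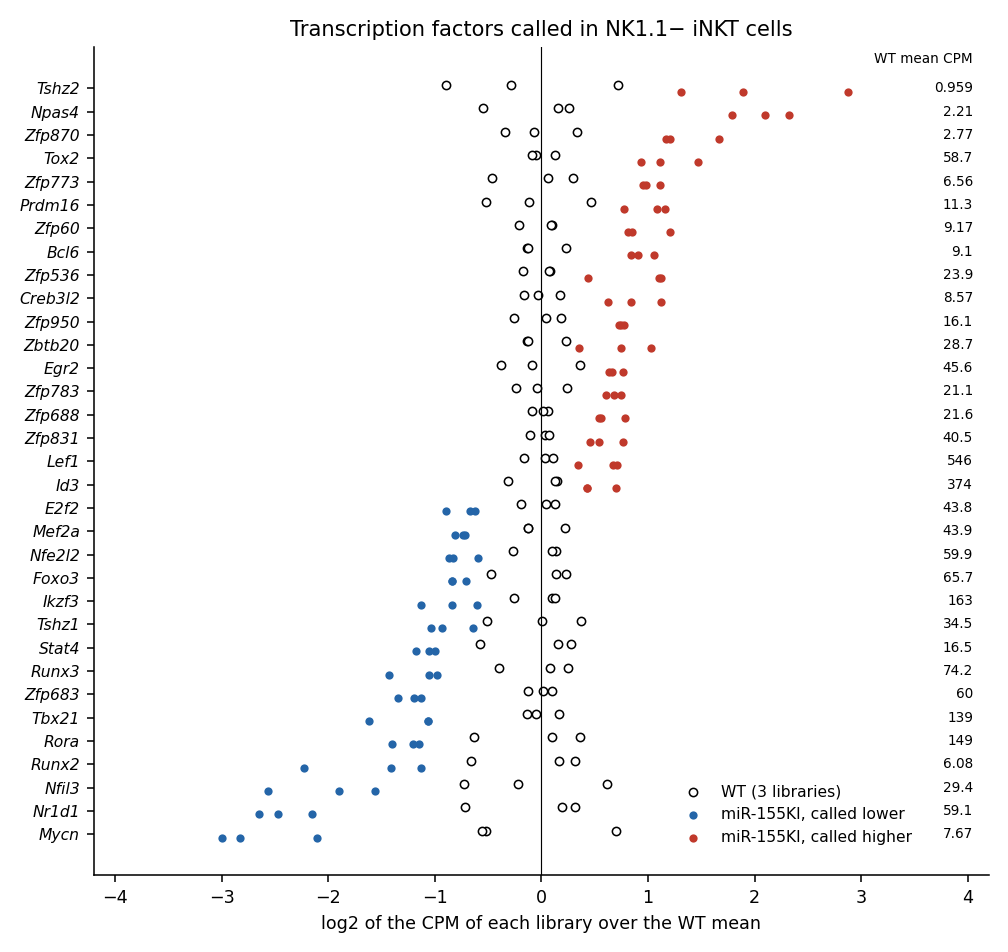
Log2 of the CPM of each library over the WT mean (horizontal axis) for 33 of the 34 transcription factors called, WT libraries as open circles and miR-155KI libraries filled red (called higher) or blue (called lower), with the WT mean CPM at the right. The factors are ordered by log2 fold change. Among them are the falls of *Mycn* (-2.57) and *Nr1d1* (-2.41) and the rises of *Npas4*, *Tox2* (1.19) and *Lef1* (0.58). *Mycn* and *Npas4* were low in both groups.

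Genes of lipid handling were mostly higher where called, 8 of 125 tested against 1 lower (7.2% called, where all genes had 3.44%). Beside *Fabp7*, *Pla2g7*, the enzyme that inactivates platelet-activating factor, was at 3.43, 2.61 and 3.73 CPM in WT and at 22.9, 14.7 and 21.1 CPM in miR-155KI libraries (log2 fold change 2.59 ± 0.26, adjusted p = 0.000153). *Lpcat2*, the enzyme that makes the same lipid mediator, was higher as well, at 4.64, 3.09 and 3.50 CPM and 11.6, 15.2 and 8.77 CPM (1.66 ± 0.29, adjusted p = 0.0066). The thioesterase *Acot11* rose from 25.9, 24.2 and 25.7 CPM to 60.4, 51.4 and 49.0 CPM (1.09 ± 0.14, adjusted p = 0.000939), and *Apol7b*, an apolipoprotein L, was the one fall (-2.53). Leaving out 1 library put the count of 8 between 4 (WT replicate 2 or miR-155KI replicate 1 left out) and 10 (WT replicate 1 left out).

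Ion channel genes were called higher in 7 and lower in 2 of 90 tested (10% called, against 3.44% of all genes). *Scn8a*, a voltage-gated sodium channel, was at 12.3, 13.8 and 13.5 CPM in WT and at 31, 31.5 and 30.2 CPM in miR-155KI libraries, with hardly any spread (log2 fold change 1.23 ± 0.15, adjusted p = 0.000776). The calcium channel *Cacna1d*, the sodium channel *Scn11a* and the potassium channel subunit *Kcnf1* had log2 fold changes of 1.56, 1.03 and 1.97. The lipid flippase *Atp8a2*, known mainly from neurons, was also higher (0.71). *Slc29a1*, the main nucleoside transporter, was at 226, 267 and 303 CPM in WT and 548, 365 and 477 CPM in miR-155KI libraries (0.80 ± 0.15, adjusted p = 0.0166), while the monocarboxylate carrier family member *Slc16a6* was lower (-1.02). *Cacna1d*, *Scn11a*, *Kcnf1* and *Atp8a2* lost their calls without miR-155KI replicate 1 (adjusted p = 0.0648, 0.139, 0.207 and 0.0724, respectively), and *Slc29a1* and *Slc16a6* without WT replicate 2 (adjusted p = 0.0825 and 0.0551). The same held for at least 1 of these calls without WT replicate 1, 2 or 3 or miR-155KI replicate 1, 2 or 3. In place of 7 rises, leaving out 1 library gave between 1 (miR-155KI replicate 1 left out) and 6 (WT replicate 1 left out), always fewer.

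Proteins of axon guidance and synapses included 5 rises and 4 falls of 77 tested (4 to 6 and 2 to 7 with 1 library left out). The share called was 11.7%, against 3.44% of all genes. *Syt11*, a synaptotagmin of vesicle traffic, was at 31.9, 28.2 and 31.7 CPM in WT and at 84.2, 67.5 and 71.4 CPM in miR-155KI libraries (log2 fold change 1.28 ± 0.13, adjusted p = 0.000217). *Nsg2*, an endosomal protein of neurons, rose from 65.5, 50.1 and 65.5 CPM to 129, 118 and 122 CPM (1.03 ± 0.13, adjusted p = 0.000705), *Plxna3*, a semaphorin receptor on the X chromosome, rose from 13, 15 and 15.1 CPM to 38.7, 30.8 and 31.7 CPM (1.23 ± 0.16, adjusted p = 0.00104), and *Lrrtm1*, a synaptic adhesion protein, went from under 1 CPM in each WT library to 5.27, 5.71 and 4.65 CPM. *Sema4a*, a semaphorin with roles in T cell priming, fell from 322, 352 and 325 CPM to 194, 208 and 197 CPM (-0.74 ± 0.10, adjusted p = 0.00104), and the granule traffic protein *Sytl1* fell from 36.4, 44.1 and 45.5 CPM to 19.1, 20.4 and 19.6 CPM (-1.09 ± 0.15, adjusted p = 0.00141). Other rises of this kind outside the list were *Ntrk3*, a neurotrophin receptor, and *Nos1*, the neuronal nitric oxide synthase, which were chosen here after their values were seen (1.06 and 1.12).

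Purinergic receptors and ectoenzymes that use NAD were higher in 5 of 18 genes tested and lower in none by edgeR (4 fell at an unadjusted p under 0.05, 2 by DESeq2 and 0 by limma-voom). The share called by edgeR was 27.8%, against 3.44% of all genes. *P2rx7* and *P2rx4*, neighbouring genes for ATP-gated channels on chromosome 5, were at 84.1, 52.7 and 52.0 CPM and 27.4, 27.1 and 33.2 CPM in WT and at 128, 111 and 94.8 CPM and 44.3, 45.5 and 48.5 CPM in miR-155KI libraries (log2 fold changes 0.83 ± 0.19 and 0.66 ± 0.14). *Art2b*, an ADP-ribosyltransferase that modifies P2RX7, and its near copy *Art2a-ps* had 0.85 and 1.90, and reads may be shared between them. *Dpp4*, a surface peptidase, had 0.58. The count of 5 lay between 0 (WT replicate 2 or miR-155KI replicate 1 or 2 left out) and 5 (WT replicate 1 left out). *P2rx4*, *Art2b* and *Art2a-ps* lost their calls without WT replicate 2 (adjusted p = 0.11, 0.145 and 0.07, respectively), *P2rx7* without miR-155KI replicate 1 (adjusted p = 0.177), and *Dpp4* without miR-155KI replicate 2 (adjusted p = 0.131). At least 1 of these calls also ended without WT replicate 2 or 3 or miR-155KI replicate 1, 2 or 3.

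Proteases and their inhibitors were called in 14 of 99 genes tested, 9 lower and 5 higher (14.1% called, against 3.44% of all genes). The lysosomal protease *Ctsd* was at 861, 978 and 903 CPM in WT and at 566, 615 and 608 CPM in miR-155KI libraries (log2 fold change -0.62 ± 0.10, adjusted p = 0.00347), and *Ctsw*, a cathepsin of cytotoxic lymphocytes, at 728, 814 and 799 CPM and 500.0, 537 and 552 CPM (-0.56 ± 0.10, adjusted p = 0.00615). *Ctsb* went the other way, from 439.8, 410.1 and 428 CPM to 566, 549 and 588 CPM (0.42 ± 0.09, adjusted p = 0.0289), and so did *Cst7*, which encodes cystatin F, an inhibitor of cathepsins in cytotoxic granules (114, 97.6 and 91.0 CPM against 194, 219.6 and 200.1 CPM, 1.02 ± 0.12, adjusted p = 0.000441). The metalloproteases *Adam12* and *Mmp25* were lower (-2.16 and -2.67). Of the 18 cytotoxic granule genes tested 3 were lower and 2 higher (27.8% called). Among these *Nkg7* was lower (-0.87) and *Lamp1*, a protein of lysosomes and granules, higher (0.64). The granzymes *Gzma* and *Gzmb* did not pass (adjusted p = 0.279 and 0.0829). *Ctsb*, *Nkg7* and *Lamp1* lost their calls without miR-155KI replicate 3 (adjusted p = 0.155, 0.0812 and 0.17, respectively), and *Ctsw* without miR-155KI replicate 1 (adjusted p = 0.0707). Leaving out WT replicate 1, 2 or 3 or miR-155KI replicate 1 or 2 also ended at least 1 of these calls. The count of 9 lower proteases lay between 5 (miR-155KI replicate 1 left out) and 10 (WT replicate 1 left out).

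Enzymes that build sialic acid and sulfate caps on glycans moved in both directions. The sialyltransferases *St8sia6* and *St3gal2* rose from 47.6, 30.4 and 33.6 CPM to 77.0, 77.4 and 65.8 CPM (0.98 ± 0.16, adjusted p = 0.00529) and from 15.9, 8.61 and 13.2 CPM to 30.1, 27.1 and 37.5 CPM (1.33 ± 0.22, adjusted p = 0.00517), and the sulfotransferase *Chst12* had a log2 fold change of 0.63. The sialyltransferase *St3gal6* fell from 39.5, 46.1 and 32.7 CPM to 8.90, 17.4 and 15.8 CPM (-1.49 ± 0.24, adjusted p = 0.00527), and *St8sia1*, which makes the ganglioside GD3, and the mucin-type enzyme *Galnt10* had -0.95 and -0.62. In all 4 of 82 genes tested were higher and 3 lower (2 to 5 and 1 to 3 with 1 library left out). The share called was 8.54%, against 3.44% of all genes. *Lgals3*, galectin-3, a lectin that binds such glycans, was at 375, 426 and 450.2 CPM in WT and 187, 192 and 205 CPM in miR-155KI libraries (-1.10 ± 0.11, adjusted p = 0.000114). *Chst12*, *St8sia1* and *Galnt10* lost their calls without miR-155KI replicate 1 (adjusted p = 0.122, 0.078 and 0.154, respectively). Without WT replicate 1, 2 or 3 or miR-155KI replicate 2 or 3, at least 1 of these calls was lost too.

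Genes of signaling enzymes and the cytoskeleton moved in both directions. *Prkca*, protein kinase Cα, rose from 39.3, 35.6 and 33.0 CPM to 86.3, 79.2 and 56.2 CPM (1.04 ± 0.16, adjusted p = 0.00302), and *Akap6*, an anchor for protein kinase A, rose from 35.4, 35.0 and 37.3 CPM to 120.1, 90.0 and 83.7 CPM (1.45 ± 0.14, adjusted p = 0.000143). The ribosomal S6 kinase *Rps6ka2* had a log2 fold change of 1.27, the microtubule regulator *Nav2* had 1.18 and the actin regulator *Cap2* had 0.90. The leukocyte myosin *Myo1f* fell from 99.7, 138 and 104 CPM to 43.1, 61.7 and 52.5 CPM (-1.12 ± 0.16, adjusted p = 0.0021), and *Nedd4*, a ubiquitin ligase that limits several receptors, fell from 82.6, 87.8 and 73.9 CPM to 41.5, 41.1 and 43.7 CPM (-0.95 ± 0.12, adjusted p = 0.000705). *Sesn1*, a sestrin that restrains mTORC1, and *Pag1*, an adaptor that recruits the kinase Csk to lipid rafts, were lower (-0.70 and -0.83). Ras, Rap and Rab proteins and their regulators were higher in 6 of 135 tested and lower in none by edgeR (18 fell at an unadjusted p under 0.05, 2 by DESeq2 and 0 by limma-voom). The share called by edgeR was 4.44%, against 3.44% of all genes. The count of 6 lay between 0 (WT replicate 2 or miR-155KI replicate 1 left out) and 6 (WT replicate 1 left out).

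Cell cycle and activation genes had list medians below 0. Of 47 proliferation genes tested, *Mcm2*, a helicase subunit of replication origins, and *Cdt1*, its loading factor, fell from 305, 299 and 375 CPM to 218, 192 and 197 CPM (-0.69 ± 0.11, adjusted p = 0.0048) and from 112, 136 and 168 CPM to 76.7, 72.2 and 84.4 CPM (-0.83 ± 0.14, adjusted p = 0.00561), and 42 of the 47 had a log2 fold change below 0 (median -0.25). The 2 calls were 4.26% of the list, near the 3.44% of all genes. Of 57 replication-dependent histone genes, whose near-identical copies share reads, 2 were lower (3.51%, near the share of all genes) and 49 lay below 0 (median -0.68). Of 45 genes that TCR signaling induces, *Rgs1*, *Btg1* and *Dusp5* were lower and *Egr2* was higher (8.89% called), and 40 lay below 0 (median -0.68), against 6669 of 13304 for all genes. The count of 3 lay between 0 (miR-155KI replicate 1 or 3 left out) and 16 (WT replicate 1 left out), that of the histones between 0 (WT replicate 3 or miR-155KI replicate 1 or 3 left out) and 8 (WT replicate 2 left out), and that of the proliferation genes between 2 (WT replicate 3 or miR-155KI replicate 1, 2 or 3 left out) and 5 (WT replicate 1 left out). *Cdkn1a*, the cell cycle inhibitor p21, was lower (11.5, 34.5 and 19.3 CPM in WT, 5.70, 8.33 and 5.46 CPM in miR-155KI libraries, -1.75 ± 0.38, adjusted p = 0.0387), while *Ccng1*, cyclin G1, was higher (0.59). *Dusp5*, *Cdkn1a* and *Ccng1* lost their calls without miR-155KI replicate 3 (adjusted p = 0.194, 0.208 and 0.0693, respectively), and *Btg1* without miR-155KI replicate 1 (adjusted p = 0.211). The same held for at least 1 of these calls without WT replicate 2 or 3 or miR-155KI replicate 1, 2 or 3.

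In 8 gene groups the count of calls was 0 with all 6 libraries. None of 26 cholesterol synthesis genes, 101 respiratory chain genes, 84 cytosolic ribosomal protein genes, 86 heat shock and unfolded protein response genes, 56 aminoacyl-tRNA synthetase and amino acid synthesis genes, 31 MHC class I and antigen processing genes, 17 complement genes or 24 genes of microRNA processing was called by edgeR, and the medians of these lists lay between -0.09 and 0.08. Of the 425 genes in these 8 lists 51 had an unadjusted p under 0.05, and DESeq2 called 14 and limma-voom 3. Without WT replicate 1 edgeR called 4 of them higher and 17 lower, among which the heat shock list held 2 and 8, the aminoacyl-tRNA list 4 lower and the cholesterol list 3 lower, and without any 1 of the other libraries it called 0 or 1 in all. Interferon-stimulated genes, which respond to type I interferon, gave 3 rises of 64 (4.69% called, against 3.44% of all genes). Of these *Iigp1* rose from 20.6, 19.3 and 15.9 CPM to 32.8, 39.0 and 36.6 CPM (0.96 ± 0.16, adjusted p = 0.00513). Of 214 solute carriers 3 were higher and 3 lower (2.8%, against 3.44% of all genes), and of 262 ubiquitin ligases and deubiquitinases 2 were higher and 1 lower (1.15%). The interferon count of 3 lay between 1 (WT replicate 2 or 3 or miR-155KI replicate 1 or 2 left out) and 8 (WT replicate 1 left out), the lower carriers between 0 (WT replicate 2 left out) and 7 (WT replicate 1 left out), and the lower ubiquitin genes between 1 (WT replicate 2 or 3 or miR-155KI replicate 1 or 3 left out) and 16 (WT replicate 1 left out). Higher carriers and higher ubiquitin genes numbered 0 to 4 and 0 to 5 in these fits.

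The marker lists of *i*NKT subsets differed as well. Of 21 *i*NKT1 markers tested, 12 were lower (57.1% called, against 3.44% of all genes). The summed level of the 22 listed was 2509 to 3148 CPM in WT and 1545 to 1882 CPM in miR-155KI libraries. Of 19 *i*NKT17 markers 13 were lower (68.4% called), with sums of 675 to 978 CPM and 333 to 384 CPM. Of 17 *i*NKT2 markers 6 were higher and 1, *Il4ra*, lower (41.2% called), with sums of 4810 to 5156 CPM and 6716 to 7063 CPM. Leaving out 1 library put the 12 between 4 (miR-155KI replicate 1 left out) and 13 (WT replicate 1 left out), the 13 between 10 (miR-155KI replicate 1 left out) and 14 (WT replicate 1 left out) and the 6 between 3 (miR-155KI replicate 1 left out) and 7 (WT replicate 1 left out). Markers of 2 further kinds of T cell also differed. The sum of 9 γδ T cell markers was 528 to 763 CPM in WT and 871 to 1204 CPM in miR-155KI libraries, with *Tcrg-C4* (1.00 ± 0.16, adjusted p = 0.00496) and *Trgv2* called higher. The γ chain genes *Tcrg-C1*, *Tcrg-C2*, *Tcrg-C4* and *Trgv2* made up most of it, while the δ chain gene *Trdc* was at 2.00, 0.849 and 0.573 CPM in WT and 1.33, 1.16 and 0.595 CPM in miR-155KI libraries (log2 fold change -0.14, adjusted p = 0.939) and *Trdv4* was under 1 CPM in all 6. *Sox13*, another marker of this list, had the largest log2 fold change in it (1.93 ± 0.54). Its groups did not overlap, but it was not called (adjusted p = 0.164), and 1 of the 6 fits that left out a library called it. The cells were sorted on TCRβ and CD1d tetramer, and the part of γδ T cells in the sum of these 9 markers was not tested. The sum of 10 CD8 T cell markers was 761 to 1018 CPM and 414 to 493 CPM. Of the latter *Cxcr3*, *Itgae* and *Nkg7* were called lower, all of which also stand in the *i*NKT1 or *i*NKT17 list. Of the lists for immature stages, macrophages, double-positive and regulatory T cells, 5 of 18, 0 of 17, 2 of 11 and 1 of 11 tested genes were called by edgeR (in the macrophage list 2 had an unadjusted p under 0.05, and DESeq2 called 1). The shares called were 27.8%, 0%, 18.2% and 9.09%, against 3.44% of all genes. The 5 of the immature list lay between 1 (WT replicate 2 or miR-155KI replicate 1 or 3 left out) and 5 (WT replicate 1 left out), its median was 0.06, and 9 of its 18 genes lay above 0. No listed marker of these sets was at 0 in all 6 libraries. The part of these cells in the results for other genes was not tested. *Trgv2* lost its call without miR-155KI replicate 1 (adjusted p = 0.161). That call also ended without WT replicate 2 or 3 or miR-155KI replicate 2.

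The 3′ UTRs of GENCODE M21 were searched for AGCATTAA, the match to bases 2 to 8 of miR-155-5p followed by an A, on the transcribed strand, and for the 7-base matches AGCATTA and GCATTAA, each of which lies within the 8-base match. Of the 20990 genes with an annotated 3′ UTR 671 held the 8-base match, and 414 of these were tested. Of the 414, 16 were lower (3.86%) and 3 were higher (0.725%), and the median log2 fold change was -0.09. Of 1264 genes with only a 7-base match 22 were lower and 24 higher (1.74% and 1.9%, median -0.04), and of 9910 with neither 152 were lower and 201 higher (1.53% and 2.03%, median -0.0004). The 3′ UTRs of genes with the 8-base match were longer (median 2728 bases, against 2522 and 991). In place of 16, leaving out WT replicates 1, 2 and 3 in turn gave 32, 4 and 7 lower genes with the match, and leaving out miR-155KI replicates 1, 2 and 3 gave 5, 10 and 8. Against WT replicate 1 alone 2 were lower, and the sex-linked covariate left 1.

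The sites of the 5 called genes with the lowest adjusted p among the 16, with the 8-base match in capitals on the transcribed strand and build GRCm38, show the bases around the match, and the coordinates are those of the 8 bases.
Tspan14 (chr14:40907405-40907412, minus strand): cgtttctccatAGCATTAAgccctactgag
Mcm2 (chr6:88883841-88883848, minus strand): gccaaggctgtAGCATTAAatgactattta
Carhsp1 (chr16:8660712-8660719, minus strand): actgtctgaaaAGCATTAAaagcatttgaa
Wdr45b (chr11:121328086-121328093, minus strand): cctgtgatgctAGCATTAAtggcaccacca
Nfe2l2 (chr2:75675806-75675813, minus strand): aaactttacaaAGCATTAAagtctcaatgt
*Tspan14*, a tetraspanin that escorts the protease ADAM10, holds 2 such matches, of which 1 is shown, and was at 132, 140.3 and 145 CPM in WT and at 75.8, 78.2 and 83.7 CPM in miR-155KI libraries (log2 fold change -0.81 ± 0.11, adjusted p = 0.00104). *Carhsp1*, a protein that binds RNA, fell from 58.3, 82.4 and 75.5 CPM to 39.6, 37.9 and 43.5 CPM (-0.84 ± 0.14, adjusted p = 0.00588). *Wdr45b*, a WIPI family protein of autophagy, was at 76.1, 106 and 100.5 CPM and 57.7, 56.3 and 59.9 CPM (-0.70 ± 0.13, adjusted p = 0.0114), and *Nfe2l2* at 49.7, 65.9 and 64.0 CPM and 32.8, 33.7 and 39.8 CPM (-0.76 ± 0.15, adjusted p = 0.0136). The others were *Mcm2*, *Tab2*, *Mef2a*, *Rell1*, *Lrrc59*, *Pde5a*, *Gm2a*, *Lpin1*, *E2f2*, *Baiap2*, *Dhx40* and *Dek*, with log2 fold changes between -0.47 and -2.76. The calls of *Tspan14*, *Mcm2* and *Carhsp1* held in all 6 fits that left out a library, and that of *Dek* held in 0. *Tab2*, *Wdr45b*, *Mef2a*, *Rell1*, *Pde5a*, *Gm2a*, *Lpin1* and *Dhx40* lost their calls without WT replicate 2 (adjusted p = 0.166, 0.0727, 0.0814, 0.0967, 0.125, 0.0825, 0.11 and 0.168, respectively), *Nfe2l2*, *Lrrc59* and *Dek* without miR-155KI replicate 1 (adjusted p = 0.0836, 0.0836 and 0.213, respectively), and *E2f2* and *Baiap2* without miR-155KI replicate 3 (adjusted p = 0.077 and 0.134). Leaving out WT replicate 1, 2 or 3 or miR-155KI replicate 1, 2 or 3 also ended at least 1 of these calls. The 3 called genes with a match that rose were *Akap6*, *Ntrk3* and *Zbtb20*.

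**Figure D5:**
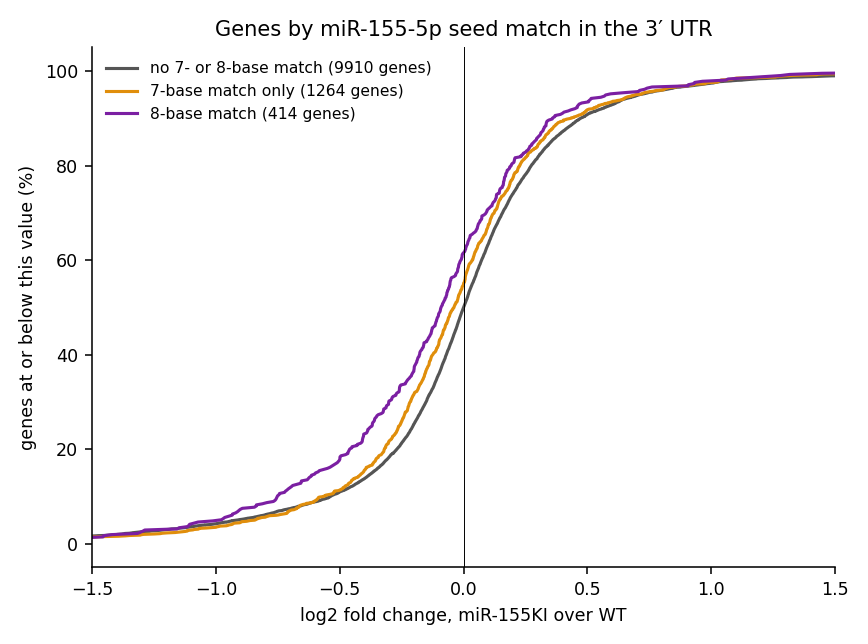
Share of genes (percent, vertical axis) at or below each log2 fold change from WT to miR-155KI (horizontal axis, shown from -1.5 to 1.5), for the 414 genes with the 8-base match, the 1264 with a 7-base match only and the 9910 with neither. The line of the 8-base matches runs to the left of the others over most of the range, with medians of -0.09, -0.04 and -0.0004.

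The positions of called genes are given as a description, with no test. Within 100 kb of another called gene lay 96 of 447 called genes with a position (21.5%), and 1346 of 12437 tested genes without a call (10.8%). Of the 51 such pairs of neighbours, 26 rose together, 17 fell together and 8 went opposite ways, and 7 pairs touch or overlap, so that reads counted without regard to strand could be shared (no source used here gives the strand setting). The pairs include receptors of the same family. *Il17re* and *Il17rc* on chromosome 6 (-2.81 and -2.50), *Il12rb2* and *Il23r* on chromosome 6 (-1.27 and -3.18) and *Il4ra* and *Il21r* on chromosome 7 (-1.42 and -0.71) each fell as a pair. *Furin* lies 639 bases from the kinase gene *Fes* (-1.27), and *Tmem176a* adjoins *Tmem176b* (-1.34). On chromosome 14 *Il17rb*, *Chdh*, which encodes choline dehydrogenase, and *Cacna1d* rose in a row (0.89, 0.61 and 1.56). *Fes* and *Chdh* were chosen after their values were seen. *Fes*, *Chdh*, *Il23r*, *Il4ra* and *Cacna1d* lost their calls without miR-155KI replicate 1 (adjusted p = 0.168, 0.173, 0.0608, 0.109 and 0.0648, respectively), and *Il17rc*, *Il12rb2* and *Il21r* without WT replicate 2 (adjusted p = 0.136, 0.105 and 0.118, respectively). Without WT replicate 2 or 3 or miR-155KI replicate 1, 2 or 3, at least 1 of these calls was lost too.

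Named noncoding transcripts were few among the calls. *Kirrel3os*, an antisense transcript inside *Kirrel3*, was at 2.86, 5.70 and 5.21 CPM in WT and 34.2, 28.9 and 13.7 CPM in miR-155KI libraries (log2 fold change 2.47 ± 0.37, adjusted p = 0.00707), and its reads and those of *Kirrel3* may not be separable. *Arhgap27os3* was higher (0.76) and *Dleu2*, the host of miR-15a and miR-16-1, was lower (-0.93). Of the 257 rises 26 were genes with no name beyond a clone or predicted-gene number, and of the 200 falls 7 were. *Kirrel3os* lost its call without WT replicate 3 (adjusted p = 0.0549), *Arhgap27os3* without WT replicate 2 (adjusted p = 0.0903), and *Dleu2* without miR-155KI replicate 1 (adjusted p = 0.164). The same held for at least 1 of these calls without WT replicate 2 or 3 or miR-155KI replicate 1, 2 or 3.

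The NK1.1+ pool of the same study, in which WT and miR-155KI cells were compared in 6 other libraries, shows where the NK1.1- cells differ. Of the 20 largest rises in NK1.1- cells 16 had the same sign in NK1.1+ cells, and of the 20 largest falls 15 did. *Mir155hg* was called in both pools (3.49 and 3.26), and no other of the 40 genes was called in NK1.1+ cells, where 3 of 12991 genes were called in all (0.0231%). The other calls there were *C1qa* and *C1qc*, complement genes of macrophages, with log2 fold changes of 4.19 and 4.30 (adjusted p = 0.0286 for each). Of the 17 macrophage and dendritic cell markers tested in NK1.1+ cells, 15 lay above 0, and the list summed to 159 to 189 CPM in WT and 382 to 1070.0 CPM in miR-155KI libraries. All 12 double-positive thymocyte markers tested there lay above 0, with sums of 64.0 to 76.1 CPM and 104 to 402 CPM, highest in miR-155KI replicate 1. None of these thymocyte markers passed by itself. In NK1.1- cells the sums of both lists overlapped between the groups (194 to 358 CPM against 273 to 312 CPM, and 144 to 212 CPM against 147 to 180 CPM), and the part of such cells in the differences between the pools was not tested. The test of the difference between the pools, an interaction over all 12 libraries, called 4 of 14401 genes (0.0278%), with 1167 at an unadjusted p under 0.05. *Sostdc1* had log2 fold changes of 3.98 (NK1.1-) and 0.01 (NK1.1+), a difference of 3.97 (adjusted p = 0.000789 for the difference). *Csf1* had 1.65 and -0.32 (difference 1.97, adjusted p = 0.00547), *Aqp11*, itself in the double-positive thymocyte list, had -1.54 and 1.46 (-2.99, adjusted p = 0.00577) and *Parm1* had 1.89 and -1.20 (3.10, adjusted p = 0.0438). The call of *Parm1* ended without WT NK1.1- replicate 1 or 2, WT NK1.1+ replicate 1 or 2 or miR-155KI NK1.1- replicate 1, 2 or 3 (adjusted p from 0.067 to 0.25) and with the replicate block (0.06), and the count of 4 was 46 without miR-155KI NK1.1+ replicate 1, 14 without its replicate 3 and 7 without its replicate 2. *Zfp683*, *Samd3*, *Myo6*, *Maml2* and *Myo1f* followed and did not pass (adjusted p for the difference from 0.0527 to 0.0668). For all other genes, a call in NK1.1- cells and none in NK1.1+ cells does not show that the pools differ.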

How the data were processed

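RNA of sorted thymic *i*NKT cells was sequenced as 12 libraries, of which the 6 of the NK1.1- pool were analysed here and the 6 of the NK1.1+ pool served for comparison. The authors deposited raw read counts per gene in 1 table (48709 genes, all 12 columns mapped to samples by name). The submitters' processing notes name bcl2fastq 2.17.1.14 and GRCm38/mm10, and the aligner, counter and strand setting are not given in the sources used here. Kits differ between sources (SMART-Seq v4 in the labels, TruSeq in the methods of the study). A deposited CPM table was not used. In the deposited counts, 27 of the gene names had been turned into dates (0.249% of counts) and 4 rows shared a name, and these were kept as listed. Counts were filtered with filterByExpr, normalized by TMM and tested with edgeR 4.0.16 (robust quasi-likelihood, 3 against 3, Benjamini-Hochberg adjustment over 13304 genes, 0.05) in R 4.3.3, and CPM values are TMM-normalized. The script was tested on simulated data. The difference between pools was an interaction in 1 fit of 12 libraries. DESeq2 1.42.0, limma-voom (limma 3.58.1), other size factors, filters, a replicate block, all 12 libraries and leaving out each library were alternatives. Positions and 3′ UTRs are from GENCODE M21, which placed 46300 genes. The 6 libraries held 12819476 to 18347011 counts, with a common biological coefficient of variation of 0.211.

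Genes were named by rule. Taken were the 20 largest rises and falls with 10 CPM or more on average in a group and groups without overlap. These also needed a call in all 6 fits that left out a library. The rule further took the called genes of highest CPM, called members of the listed gene groups, named noncoding transcripts, genes with seed matches, and the 10 genes with the smallest interaction p. Comparisons, gene groups and lists were chosen with earlier results of these data known, and the patterns that defined 4 lists (histones, complement, lipid handling, redox enzymes) were narrowed after the gene names in the table had been seen and before any test. Results of a few genes are not reported here.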

Additional observations from a re-analysis of the deposited data

Results flagged for a closer look

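The effect of miR-155KI differed between the NK1.1- and NK1.1+ pools for 4 genes by edgeR's test of the difference over 12 libraries, and the values are log2 fold changes in NK1.1- minus those in NK1.1+ cells. *Sostdc1*, the secreted antagonist of BMP and Wnt, stood at 3.97 (adjusted p = 0.000789), since it was raised in NK1.1- cells (3.98) and not in NK1.1+ cells (0.01). *Csf1*, the macrophage growth factor, stood at 1.97 (adjusted p = 0.00547), and *Aqp11*, the intracellular aquaporin, at -2.99 (adjusted p = 0.00577), with a fall in the first pool and a value of 1.46 (adjusted p = 0.201) in the second. *Aqp11* stands in the list of double-positive thymocyte markers, of which *Dntt*, *Arpp21*, *Cd8a*, *Ptcra* and *Themis* had log2 fold changes of 4.08, 3.83, 3.02, 2.37 and 1.77 in NK1.1+ cells (none passed) and each was highest in miR-155KI replicate 1. *Aqp11* was at 9.13, 8.91 and 9.49 CPM in WT and 34.1, 24.1 and 17.5 CPM in miR-155KI NK1.1+ libraries, and the part of thymocyte RNA in its difference was not tested. *Parm1*, which encodes a mucin-like protein, stood at 3.10 (adjusted p = 0.0438). The first 3 stayed under 0.05 in all 12 fits that left out a library. *Parm1* did not without WT NK1.1- replicate 1 or 2 (adjusted p = 0.119 and 0.145), WT NK1.1+ replicate 1 or 2 (0.067 and 0.195) or miR-155KI NK1.1- replicate 1, 2 or 3 (0.25, 0.112 and 0.179), nor with the replicate block (0.06). Groups of 3 libraries are too small for a test of single outlying samples.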

How the results depend on the processing

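The direction of each named gene held under every alternative run. Of the 457 changed genes (257 higher, 200 lower), DESeq2 called 953 (498 higher, 455 lower), no low-count filter gave 1048 (565 and 483), the fit of all 12 libraries 139 (69 and 70), WT replicate 1 as the only WT library 157 (85 and 72), the sex-linked covariate 115 (60 and 55), an adjusted p under 0.01 172 (93 and 79) and a further threshold of 2-fold 227 (121 and 106). Leaving out 1 library gave 186 to 917 changed genes (99 to 369 higher, 87 to 548 lower). Limma-voom, RLE size factors, a minimum of 10 counts and the fit without the robust option gave counts within 1.5 times the reported ones. Of the 233 called genes named by the rule, 233 were called by DESeq2, 209 by limma-voom, 70 with WT replicate 1 as the only WT library and 67 with the covariate. The cause of these shifts was not tested.

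A block for the replicate number gave 737 changed genes (365 higher, 372 lower), 233 of the 233 called genes named by the rule among them. Of the 4 differences between the pools it ended 1, *Parm1* (adjusted p = 0.06). The numbers share no stated animal or batch, and deviations of same-numbered WT and miR-155KI libraries correlated by 0.0694, 0.147 and 0.082, each library correlating best with its own number, so the pairing is a hint from the data and not part of the design.

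The 4 genes with a different effect in the pools were 7 with RLE size factors, 10 with a minimum of 10 counts, 3 with the block and 3 to 46 with 1 library left out. The 16 lower genes with an 8-base seed match were 1 with the covariate, 6 in the fit of all 12 libraries, 27 without a filter and 4 to 32 with 1 library left out. The median log2 fold change of the 414 tested genes with the match was -0.0901. It was -0.0509 without a filter, -0.0767 with WT replicate 1 as the only WT library and -0.1207 to -0.0598 with 1 library left out.

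With 3 libraries a group and sex-linked RNA that differs between them, the data limit which single genes can be called. Where a gene lost its call, 1 library whose removal ended the call is named, and other removals often ended it too. For example, the calls of *Il4ra*, *Icos*, *Id3* and *Egr2* held in only 1 of the 6 fits that left out a library. Genes near 1 CPM have few counts, and no value of miR-155 itself is in the table of messenger RNAs beyond a listed 0.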

Other observations

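A pair of nearly identical V segments of the TCRα locus took opposite values, and they are given here because their reads may not be separable. *Trav7-2* was at 0 CPM in the 3 WT libraries and at 2.29, 1.62 and 2.87 CPM in the miR-155KI libraries, and *Trav7d-2* was at 2.00, 2.42 and 2.01 CPM and at 0.160, 0.0771 and 0.162 CPM. Against the 3 counts that a count of 0 over the WT group allows, *Trav7-2* was at least 36.9-fold higher, and the sum of both segments was 2.00, 2.42 and 2.01 CPM against 2.45, 1.70 and 3.03 CPM, with overlapping groups. The transcripts of 336 and 337 bases differ by 1 edit. The same switch appears in the NK1.1+ libraries without regard to genotype. There *Trav7-2* had 0, 60 and 0 counts in WT and 0, 0 and 53 counts in miR-155KI replicates 1 to 3, and *Trav7d-2* had 46, 0 and 54 counts and 63, 38 and 3 counts. Each library thus counted almost all reads of the pair under 1 of the 2 names.

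Genes outside all lists made up 224 of the 457 calls, 142 higher and 82 lower of 9354 tested (2.39% called, below the 3.44% of all genes). *Gh*, growth hormone, was among the rises, from 0.50, 0.485 and 0.745 CPM in WT to 5.22, 5.24 and 5.03 CPM in miR-155KI libraries (3.14 ± 0.40, adjusted p = 0.000776). The T cell surface protein *Cd7* was among the falls, from 197, 247 and 183 CPM to 95.3, 121 and 111 CPM (-0.94 ± 0.13, adjusted p = 0.00172). Both calls held in all 6 fits that left out a library, and both genes were chosen after their values were seen.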
